A study of Mus musculus with 6 samples.

Results

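Intermediate filament genes were followed through the developing mouse lung in 6 single-cell libraries. The 6 genes were the keratins Krt18, Krt8, Krt7 and Krt19, vimentin (Vim) and desmin (Des), out of 31053 genes in the count matrices. They were listed because Krt18 was known from these same libraries to mark arterial endothelial cells (ECs) with high elastin (Eln), so its contrast between Eln-high and Eln-low ECs is given as a description. An EC was a cell with at least 2 UMIs (counted RNA molecules) of Pecam1 plus Cdh5 and no Epcam UMI, and it was called Eln-high from 10 Eln UMIs upward. By this rule 31724 of 58883 cells kept were ECs, and 3332 of these were Eln-high.

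The study asked how the arterial endothelium marked by the chemokine CXCL12 is divided, and what is lost without Cxcl12. Every lung carried the Cxcl12-DsRed allele, a reporter knocked into the Cxcl12 gene, so no wild-type lung was present. Each of 4 libraries held sorted cells from Cxcl12DsRed/+ lungs of a single age (embryonic day 13.5, 15.5 or 18.5, written E13.5 and so on, or postnatal day 8, P8), with several lungs mixed per age. Their labels name a Cxcl12+ sort, which the paper describes as for DsRed and CD31, and against CD45 and EpCAM. The other 2 held whole E18.5 lungs, labelled as the Cxcl12DsRed/+ heterozygous control and the Cxcl12DsRed/DsRed homozygous null. Each condition had 1 library, so no test between conditions was possible, and every interval below is an exact 95% interval for counting error only.

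Intermediate filaments are rope-like polymers that give cells mechanical strength, and each cell type builds them from its own set of genes. Keratins assemble only as pairs of a type I and a type II chain. In simple epithelia, such as the lung lining, KRT18 and KRT19 are type I partners of KRT8 and KRT7, which are type II. Vimentin forms the filaments of mesenchymal, endothelial and immune cells by itself, and desmin those of muscle.

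The libraries held 63746333 to 117522172 UMIs and kept 7448 to 12726 cells. The targeted gene went against the whole-lung labels. Cxcl12 stood at 4.44 UMIs in 1e+06 (counts per 1e+06 UMIs, CPM) in ECs of the library labelled control and at 515 CPM in ECs of the library labelled null. The names "labelled control" and "labelled null" are therefore used throughout, and no direction by genotype is drawn. All 9 endothelial markers were detected in the Eln-high cells of every library. Those cells were also richer in likely doublets, with 9.34% to 62.4% called by Scrublet against 1.80% to 10.4% of Eln-low cells, and they carried more mesenchymal RNA, with all 8 mesenchymal markers detected except 1 of them at P8. In the E13.5 library 10608 of the 12726 cells kept were mesenchymal and 210 were ECs, and its EC values rest on these few ECs. Per the paper's methods, reporter-positive cells without CD31, enriched for mesenchyme, were collected as well. The labels do not say which fraction each library holds. At E15.5 mesenchymal cells were 2065 of 11649. Each pair of libraries shared 16 to 50 barcodes of cells kept.

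Krt18 and Krt8 are neighbours on mouse chromosome 15. On GRCm38 (GENCODE M21), Krt18 lies at chr15:102028180-102032027 on the plus strand and Krt8 at chr15:101996698-102004482 on the minus strand, so that their start sites face apart across 23697 bases. Krt7 lies on the same chromosome at chr15:101411043-101430313, whereas the other members are scattered, with Krt19 at chr11:100140810-100148665, Vim at chr2:13573927-13582826 and Des at chr1:75360329-75368579. The 250 bases before the start sites of Krt18 (chr15:102027966-102028215, plus strand) and Krt8 (chr15:102004343-102004592, minus strand) are shown from RefSeq (GRCm38.p6). Its start sites differ from those of GENCODE, so part of each window lies within the GENCODE gene, a larger part for Krt8. By GENCODE the windows thus lie at unlike places. The windows are shown since both genes were high together in epithelial cells and came apart in arterial ECs. Capitals mark matches on either strand to GGGNGTGG, a KLF-type motif.
Krt18: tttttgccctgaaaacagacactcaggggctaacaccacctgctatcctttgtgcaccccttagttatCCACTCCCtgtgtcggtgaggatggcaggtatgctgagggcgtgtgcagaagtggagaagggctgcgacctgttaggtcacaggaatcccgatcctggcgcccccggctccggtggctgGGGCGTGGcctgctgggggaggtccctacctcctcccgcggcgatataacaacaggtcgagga
Krt8: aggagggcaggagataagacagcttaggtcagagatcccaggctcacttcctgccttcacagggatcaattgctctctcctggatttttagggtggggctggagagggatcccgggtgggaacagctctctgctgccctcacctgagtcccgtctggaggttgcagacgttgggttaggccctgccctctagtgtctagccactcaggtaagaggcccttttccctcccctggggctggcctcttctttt
The Krt18 window held 2 such matches and the Krt8 window none, and 15.9% of 32851 promoter windows of this length held at least 1. This motif was chosen after the sequences had been read. Neither window matched the TATA box (TATAAA, in 12.4% of windows), the GC box (GGGCGG, in 32.7%), the AP-1 site (TGANTCA, in 6.75%) or the SOX core (ACAAT, in 27.7%). The Krt18 window held 12 CpG pairs and the Krt8 window 3. A match is only a run of letters, and no binding was measured.

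Krt18, the type I keratin of simple epithelia, was the keratin with the highest level in Eln-high ECs from E15.5 on. Krt10 came next, at 28.2, 19.5 and 21.1 CPM in the sorted libraries from E15.5 to P8. It stood at 24.2 and 17.0 CPM in the libraries labelled control and null. At E13.5 Eln-high ECs held 31.1 CPM of Krt18 (17.0 to 52.2). The E15.5 library held 212 CPM (205 to 220) and the E18.5 library 235 CPM (224 to 246), and P8 stood at 185 CPM (172 to 200). In the whole E18.5 lungs Krt18 stood at 52.4 CPM (44.5 to 61.3) in the library labelled control and 60.9 CPM (55.2 to 67.0) in the library labelled null. The level over all Eln-high ECs was thus low at E13.5, where only 47 such cells were present, and lay at 185 to 235 CPM from E15.5 to P8. At like Eln counts these 3 ages differed more. By age they held 66.1, 24.8 and 19.4 CPM at 10 to 14 Eln UMIs, and 261, 535 and 493 CPM from 100 Eln UMIs.

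In Eln-low ECs Krt18 fell with age, from 13.3 CPM at E13.5 through 4.61 and 2.70 CPM in the E15.5 and E18.5 libraries to 0.677 CPM at P8. It stood at 2.07 CPM in the library labelled control and 2.19 CPM in the library labelled null. In every library the Eln-high level was the higher, which is the contrast for which Krt18 was chosen. The Eln-high level was 2.34-fold (1.08 to 4.97) the Eln-low level in the E13.5 library. From E15.5 onward the ratios were 46.0-fold (41.3 to 51.4), 87.0-fold (73.2 to 104) and, at P8, 274-fold (198 to 389). It was 25.4-fold (17.2 to 38.4) in the library labelled control and 27.8-fold (21.1 to 37.4) in the library labelled null. With 0.5 CPM added to both levels, the log2 ratio averaged 4.83 ± 2.09 (SD over 6 libraries of different conditions).

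**Figure D1:**
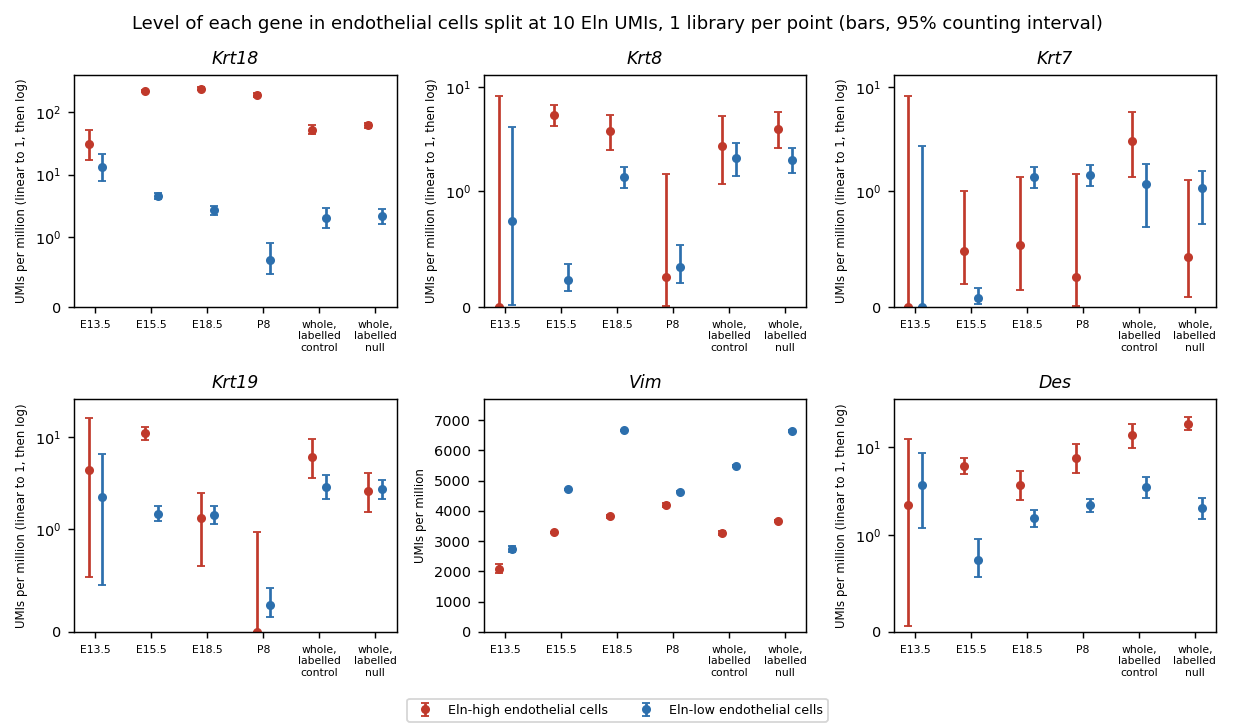
Level of each of the 6 genes in CPM (Vim on a linear axis, the others linear to 1 and then log) in Eln-high and Eln-low ECs of each library, with exact 95% Poisson intervals for counting error as bars. Krt18 is higher in Eln-high than in Eln-low ECs in all 6 libraries, from 31.1 against 13.3 CPM at E13.5 to 185 against 0.677 CPM at P8, whereas Vim lies above 2000 CPM in both groups.

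By this ratio Krt18 ranked at place 3 from the top of 8525 genes at P8, at place 6 of 8649 in the E18.5 library and at place 13 of 8384 in the E15.5 library. It came at place 24 of 9297 genes labelled control, 31 of 9062 labelled null and 501 of 8820 for E13.5. These ranks describe the choice of the gene and are not evidence for it. Among members that reached 10 CPM in 1 of both EC groups, those at least 2-fold higher in Eln-high cells were Krt18 and Krt19 at E15.5, Krt18 and Des in both whole lungs, and Krt18 alone in the other three. Over all genes tested 8.06%, 8.4%, 7.35% and 6.6% were that much higher in the sorted libraries by age, and 8.93% and 9.17% in the libraries labelled control and null. No member was at least 2-fold lower, which 5.08%, 2.58%, 5.91%, 4.77%, 2.23% and 1.84% of genes were in the same order. Since the contrast had picked the members, nothing is read from these counts.

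Krt18 climbed with Eln itself across the ECs. At E18.5 its level was 1.65 CPM in ECs without an Eln UMI, 14.0 CPM at 5 to 9 Eln UMIs, 24.8 CPM at 10 to 14, 65.0 CPM at 15 to 29, 205 CPM at 30 to 99 and 535 CPM from 100 Eln UMIs. At P8 the level was 0.611 CPM without Eln, 3.93 CPM just below the threshold, 19.4 CPM just above it and 493 CPM from 100 Eln UMIs. At E15.5 the same steps were 2.07, 41.4, 66.1 and 261 CPM. The cells just below the threshold were therefore not empty of Krt18. In CPM most of the rise lay above the threshold, while in fold terms much of it lay below.

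The whole lungs rose to lower values. From 100 Eln UMIs Krt18 stood at 148 CPM (113 to 190) in 24 cells of the library labelled control and at 169 CPM (150 to 190) in 89 cells of the library labelled null. The order was broken in the library labelled null, where cells with 30 to 99 Eln UMIs held 23.6 CPM and those with 15 to 29 held 38.7 CPM. It was also broken at E13.5, where the groups held 20 to 68 cells. At P8 and labelled null the steps below 5 Eln UMIs had no steady order, with 0.611, 0.341 and 0.473 CPM at 0, 1 to 2 and 3 to 4 Eln UMIs at P8. Eln UMIs rise with a cell's depth, and in the whole lungs the median depth of Eln-high cells was 14124 and 15563 UMIs against 7694 and 8354 in Eln-low cells.

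**Figure D2:**
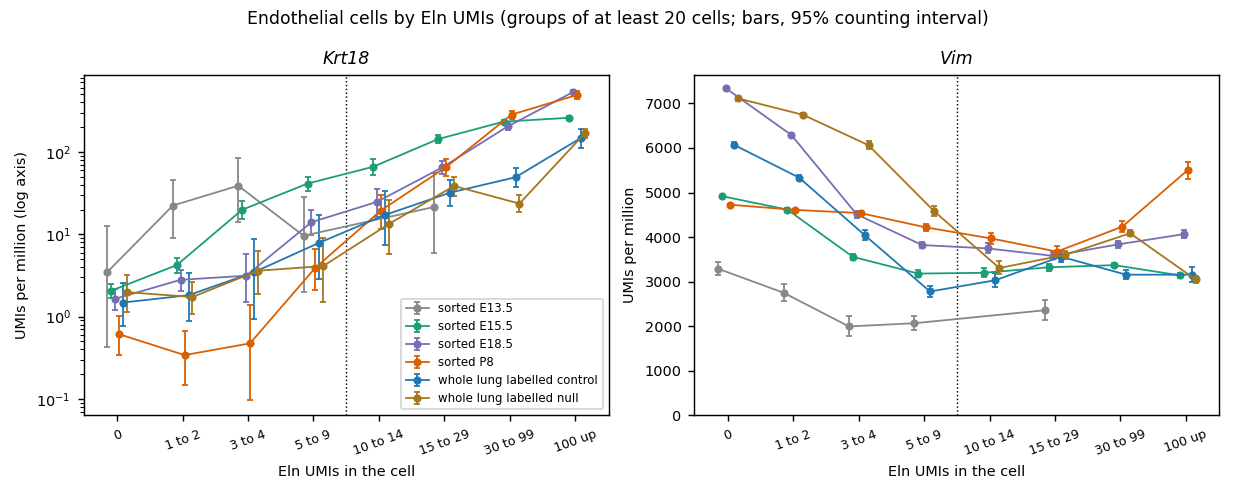
Krt18 (log axis) and Vim (linear axis) in CPM in ECs grouped by their Eln UMIs, with 1 line per library, 95% counting intervals as bars, groups of under 20 cells left out and a dotted line at the threshold of 10 Eln UMIs. Krt18 rises from 1.65 to 535 CPM at E18.5 and from 0.611 to 493 CPM at P8 between the lowest and highest Eln group, while Vim goes from 7338 to 4066 CPM at E18.5.

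A Krt18 UMI was not seen in every Eln-high EC, and a cell without one may still express the gene. By age such a UMI was seen in 23.4%, 62.5%, 48.8% and 43.9% of sorted Eln-high cells, and in 20.1% and 23.1% of those of the libraries labelled control and null. After each cell was thinned to 2000 UMIs the shares were 12.8%, 34.1%, 31.2%, 25.6%, 10.1% and 11.2%. The thinned shares in Eln-low ECs, the background in the same libraries, were 1.86%, 1.11%, 0.392%, 0.0915%, 0.299% and 0.355%. The median cell with Krt18 held 3 UMIs from E15.5 to P8, the highest held 31, and the top 5% of Eln-high cells at P8 held 40.9% of the Krt18 UMIs.

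Eln-high ECs with Krt18 carried more of the proximal arterial gene Gkn3 and less mesenchymal RNA than those without. In every library they were also richer in Eln, the gene that set the groups. For the E18.5 library the Eln levels were 13995 CPM with Krt18 against 3743 CPM without. The P8 cells held 9511 against 2461 CPM, and those of E15.5 held 8874 against 5246 CPM. Whether the differences in Gkn3 and mesenchymal RNA remain among cells of like Eln level was not tested. At E18.5 Gkn3 stood at 342 CPM in Eln-high ECs with Krt18 and at 46.5 CPM in those without, and at P8 at 373 and 41.0 CPM. The 8 mesenchymal markers summed to 235 CPM with Krt18 and 1054 CPM without at E18.5, and to 938 and 2628 CPM at E15.5. The 8 epithelial markers summed to 55.1 CPM with Krt18 and 26.6 CPM without at E18.5, 18.3 and 10.8 CPM at E15.5 and 66.4 and 62.1 CPM labelled null, were higher with Krt18 labelled control as well, and at P8 stood at 11.8 CPM with and 22.5 CPM without. In the library labelled control Scrublet called 21.1% of Eln-high cells with Krt18 and 72.8% of those without, and in the library labelled null 16.5% and 65.0%. With called doublets left out, Krt18 in Eln-high ECs was 134 CPM (112 to 158) in the library labelled control and 143 CPM (129 to 158) in the library labelled null, over 2 times the level with them. A stricter filter kept ECs without epithelial, mesothelial or immune marker UMIs and with no more than 2 mesenchymal marker UMIs. Smooth muscle markers were not part of it. Of the Eln-high ECs it kept, 12 labelled control held 321 CPM and 29 labelled null held 207 CPM. This filter is meant below where cells with markers of other classes are left out.

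Splitting ECs by Gkn3 in place of Eln gave the same direction. Gkn3 is the paper's marker of proximal arterial cells, the cells for which Krt18 was chosen. This split is thus a description too and no separate support. ECs with at least 1 Gkn3 UMI held 27.2, 257, 436 and 282 CPM of Krt18 in the sorted libraries by age, and 375 CPM in the library labelled null. Within Eln-low ECs, cells with arterial markers (Gja4, Gja5 and Alox12 at 3 or more UMIs together) held 6.19 CPM in the E15.5 library and 3.20 CPM in the E18.5 library. The Gpihbp1-high capillary ECs held 0.541 and 1.98 CPM, and the lymphatic ECs 2.16 CPM at E15.5 and 0 of 1094925 UMIs at E18.5. For the latter a floor of 3 counts is 2.74 CPM. The arterial Eln-low ECs of E13.5 held more, 15.3 CPM.

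Free RNA from epithelial cells, which is rich in Krt18, was compared with these levels through 8 epithelial markers (those of the list other than Epcam, which the EC rule holds at 0). Free RNA of a single source would keep its genes in 1 ratio in all cells of a library. Epithelial cell types differ in Krt18 and in these markers, so the ratio over all epithelial cells is an approximation. In the library labelled control, ECs held 9.37 Krt18 UMIs per 100 epithelial marker UMIs where its epithelial cells held 1.71, and in the library labelled null 22.1 where epithelial cells held 1.99. The excess lay in the Eln-high cells, with 65.0 and 96.5 Krt18 UMIs per 100, while Eln-low ECs held 1.81 and 3.31. At the epithelial ratio the Eln-high cells would have held 1.38 and 1.25 CPM, and the counted levels were 37.9 and 48.6 times that. In Eln-low ECs they were 1.06 and 1.66 times. By the same measure mesenchymal cells held 2.03 and 1.89 times and immune cells 1.63 and 0.462 times the level at the epithelial ratio. Values of the size seen in Eln-low ECs were thus not particular to ECs. The ratio depended on Sftpc, the surfactant gene that gave most of the marker UMIs. Without Sftpc the excess over epithelial cells in all ECs went from 5.47-fold to 3.51-fold labelled control and from 11.1-fold to 7.71-fold labelled null. Eln-high ECs then held 211 and 338 Krt18 UMIs per 100, Eln-low ECs 7.16 and 12.2, and epithelial cells 10.3 and 10.5.

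The sorted libraries held few epithelial cells, by age 24, 27, 28 and 4, and gave the same order. In their Eln-high ECs Krt18 was 6.64, 157, 449 and 2713 times what the epithelial ratio gives. In Eln-low ECs it was 2.84, 7.83, 3.23 and 6.46 times that ratio. The epithelial markers themselves were no higher in Eln-high than in Eln-low ECs in both whole lungs, at P8 (18.2 and 27.9 CPM) and at E18.5 (39.9 and 63.8 CPM), and were higher at E15.5 (15.2 and 6.60 CPM). The counts adjusted by the authors with SoupX for free RNA left Krt18 at 46.0 and 61.8 CPM in the Eln-high ECs labelled control and null, and at 0.300 and 0.233 CPM in the Eln-low ECs.

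**Figure D3:**
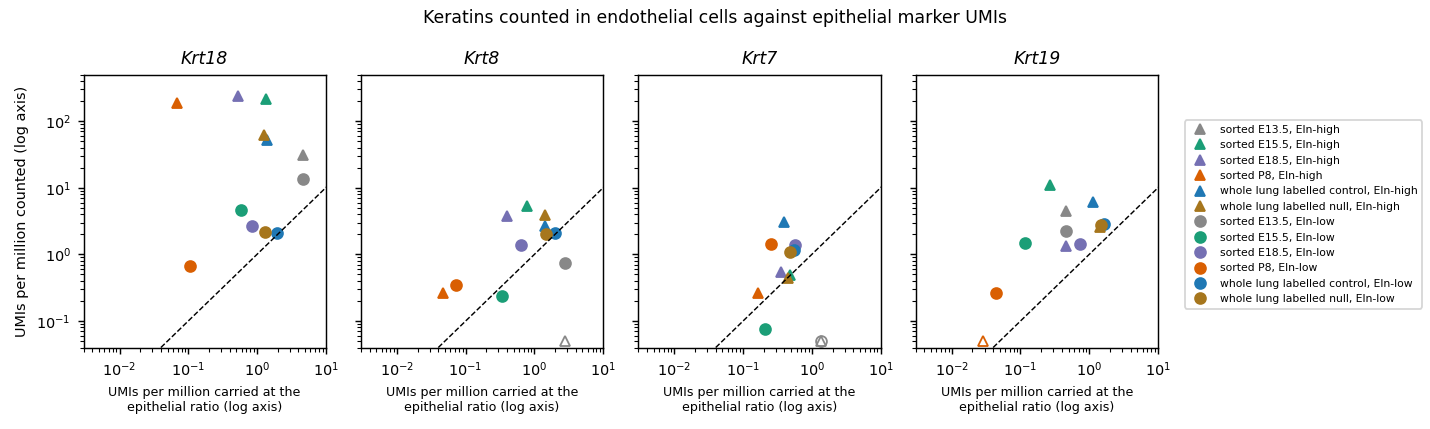
Level of each keratin counted in Eln-high (triangles) and Eln-low ECs (circles) of each library in CPM (vertical, log axis) against the level carried at the ratio of keratin to epithelial marker UMIs in its epithelial cells (horizontal, log axis), with a dashed line where both are equal and open markers at the bottom for 0 UMIs. Krt18 in Eln-high ECs lies far above the line, at 52.4 against 1.38 CPM in the library labelled control, while Eln-low ECs of that library lie on it, at 2.07 against 1.95 CPM.

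Krt8, the type II partner of KRT18 in simple epithelia, did not accompany it at a like level. It was nonetheless higher in Eln-high than in Eln-low ECs of some libraries. In Eln-high ECs Krt8 was not found at E13.5, where a floor of 3 counts is 6.67 CPM. It stood at 5.36, 3.75 and 0.263 CPM in the later libraries by age. In the whole lungs it stood at 2.69 CPM in the library labelled control and 3.92 CPM in the library labelled null. Eln-low ECs held 0.740, 0.238, 1.36, 0.347, 2.07 and 1.99 CPM in the same order. The ratio of Eln-high to Eln-low cells exceeded counting error at E15.5, where it was 22.5-fold (13.5 to 39.4), at E18.5, where it was 2.75-fold (1.71 to 4.32), and in the library labelled null, at 1.97-fold (1.19 to 3.19). With cells carrying markers of other classes left out, Eln-high ECs held 9.65 CPM of Krt8 at E15.5 and 5.01 CPM at E18.5, and its mean log2 ratio went from 0.64 over 6 libraries to 2.03 over 4.

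The balance of both chains therefore differed between epithelial cells and Eln-high ECs. For every 100 Krt18 UMIs, epithelial cells held 60.2, 58.0, 75.0 and 69.3 Krt8 UMIs in the sorted libraries by age, and 103 and 112 in the libraries labelled control and null. Eln-high ECs held 0, 2.53, 1.59, 0.142, 5.13 and 6.44. Eln-low ECs held 5.56, 5.16, 50.4, 51.3, 100 and 91.2, and mesenchymal cells 13.9, 12.2, 87.5, 100, 95.6 and 87.0. At E13.5 and E15.5 a low share of Krt8 was thus not particular to Eln-high ECs. In both whole lungs the SoupX adjustment took Krt8 in Eln-high ECs further down, to 0.707 CPM labelled control and 0 CPM labelled null, while it left Krt18. At E15.5 and E18.5 Krt8 in Eln-high ECs was 6.82 and 9.55 times the level that the epithelial ratio gives.

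Type II keratins as a whole were few beside type I in Eln-high ECs, a ratio that Krt18 itself lowers. Over all keratin genes, Eln-high ECs held 8.70, 5.12, 3.03 and 9.81 type II UMIs per 100 type I UMIs in the sorted libraries by age, and 12.1 and 8.50 in the libraries labelled control and null. Epithelial cells held 58.2 to 200 per 100, mesenchymal cells 10 to 22.4 and Eln-low ECs 3.22 to 164. The Eln-low value of 3.22, at E15.5, was below the Eln-high value of that library. There Krt18 gave 3048 of 3631 type I UMIs in Eln-high ECs, while Krt10 gave 1468 of 2019 in Eln-low ECs. Of the type II genes the highest in Eln-high ECs at P8 was Krt79, at 11.3 CPM. As levels, type II genes summed to 12.9 CPM in Eln-high and 0.814 CPM in Eln-low ECs at E15.5, while Eln-high ECs were the lower at E18.5 (7.77 against 14.7 CPM) and P8 (20.3 against 27.9 CPM). They summed to 10.1 and 7.81 CPM labelled control and 6.97 and 8.13 CPM labelled null. In the Eln-low ECs of E18.5 and P8 most of it was Krt80, at 11.5 and 25.4 CPM.

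Krt19 and Krt7 were low in ECs next to epithelial cells, and Krt19 was raised in Eln-high ECs at E15.5. Krt19, a type I keratin of ducts and airways, stood at 4.45, 11.1, 1.34 and 0 CPM in Eln-high ECs from E13.5 to P8, and at 6.04 and 2.61 CPM in the libraries labelled control and null. Its highest value, at E15.5, was 7.48-fold (5.86 to 9.58) the Eln-low level of 1.48 CPM, and by P8 it was at least 14.0-fold lower than at E15.5, taking 3 counts as the floor at P8. Mesenchymal cells of the same E15.5 library held 11.9 CPM of Krt19, and mesenchymal markers were at 1643 CPM in the Eln-high ECs and 197 CPM in the Eln-low ECs there. With cells carrying markers of other classes left out, Krt19 stood at 13.9 CPM in Eln-high and 1.05 CPM in Eln-low ECs at E15.5. By Eln UMIs Krt19 did not rise steadily there, with 9.62 CPM at 5 to 9, 16.0 CPM at 15 to 29 and 8.73 CPM from 100. The part of mesenchymal RNA in these values was not tested. The E15.5 level was 41.9 times what the epithelial ratio gives in Eln-high ECs and 12.9 times in Eln-low ECs. In mesenchymal cells of that library it was 126 times, so the excess was not particular to ECs.

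Krt7, a type II keratin of simple epithelia, was at most 3.02 CPM in Eln-high or Eln-low ECs of any library, that value being from Eln-high ECs of the library labelled control. Cells of that library with 10 to 14 Eln UMIs held 6.43 CPM. In Eln-low ECs it went from 0.0752 CPM at E15.5 to 1.36 and 1.42 CPM in the later libraries. Epithelial markers in the same cells went from 6.60 to 63.8 and 27.9 CPM. At the epithelial ratio 0.207, 0.576 and 0.254 CPM of Krt7 would be carried there. Krt8 in Eln-low ECs also went up from E15.5 to E18.5, by 1.33 on the log2 scale, and at the epithelial ratio 0.628 of its 1.36 CPM would be carried.

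Vimentin was the most abundant of the 6 genes in ECs and was lower in Eln-high than in Eln-low cells of every library. Eln-high ECs held 2091, 3288, 3818 and 4198 CPM by age in the sorted libraries, and 3268 and 3663 CPM in the libraries labelled control and null. Eln-low ECs held 2735, 4722, 6660, 4629, 5498 and 6657 CPM. The levels overlapped between libraries, but within each library the Eln-high level was lower beyond counting error, by 1.10 times at P8 to 1.82 times in the library labelled null. The mean log2 ratio was −0.58 ± 0.28 (SD over 6 libraries).

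Vim did not fall steadily with Eln. At E18.5 it went from 7338 CPM in ECs without Eln to 3579 CPM at 15 to 29 Eln UMIs and stood at 4066 CPM from 100 Eln UMIs. At P8 it went from 4726 to 3674 CPM over the same range and reached 5502 CPM in the 55 cells with 100 or more. Under the split by Gkn3 the P8 difference was 0.0081 on the log2 scale, with Gkn3-positive cells the higher. Among Eln-low ECs at E18.5, Car4-high capillary cells held 10680 CPM, Gpihbp1-high cells 8509 CPM and arterial cells 5246 CPM. At P8 these groups held 4582, 4700 and 4658 CPM.

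Over time Vim rose in Eln-low ECs from E13.5 to E18.5 and was lower at P8, by 0.52 on the log2 scale from E18.5. In Eln-high ECs it was 0.14 higher at P8 than at E18.5. From E15.5 to P8, Krt18 differed by −0.19 in Eln-high and by −2.12 in Eln-low ECs. Among the 3 members of at least 10 CPM in Eln-high ECs only Krt19 was at least 2-fold lower at P8 than at E15.5, as were 8.24% of 8825 genes, and none was 2-fold higher, as were 10.5%. In Eln-low ECs Vim alone reached 10 CPM and did not pass the fold, where 14.6% of 8477 genes were higher and 6.95% lower.

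Desmin, the intermediate filament of muscle, was low in ECs. Eln-high ECs held 2.22, 6.19, 3.75 and 7.63 CPM of Des from E13.5 to P8, and 13.8 and 18.7 CPM in the libraries labelled control and null. Eln-low ECs held 3.70, 0.739, 1.55, 2.19, 3.49 and 2.03 CPM. The Eln-high level was higher beyond counting error in 5 of 6 libraries, by up to 9.22-fold (6.64 to 12.9) in the library labelled null. At E13.5 the Eln-high level was 0.601-fold (0.0127 to 5.37) the Eln-low level, which is within counting error. There smooth muscle markers stood at 1069 CPM in Eln-high and 513 CPM in Eln-low ECs. Smooth muscle markers, whose 5 genes were all detected, summed to 317 CPM in Eln-high and 20.2 CPM in Eln-low ECs at P8, and to 1040 and 41.5 CPM in the library labelled null. The mean log2 ratio of Des, 1.54, became −0.87 once cells with markers of other classes were left out, over the 4 libraries with enough cells, and −0.52 under the Gkn3 split over 5 libraries.

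In the mesenchymal cells Des rose with smooth muscle RNA. In the library labelled control it went from 22.6 CPM in cells with 0 to 9 UMIs of the 5 smooth muscle markers to 69.1 CPM at 10 to 99 and 378 CPM from 100 upward, and in the library labelled null from 23.1 to 74.0 and 310 CPM. At P8 the same steps were 12.1, 359 and 883 CPM, in 22, 27 and 18 cells. At E15.5 the upper steps did not differ, at 65.6 and 65.4 CPM. The P8 sort held only 67 mesenchymal cells.

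The cell types of the whole lungs each had their own combination of the 6 genes. Cells of both libraries were clustered together and named from marker genes. Krt18 was highest in ciliated-like cells at 1324 CPM, followed by secretory-like cells at 919 CPM, AT1-like cells at 842 CPM and AT2-like cells at 362 CPM. In the library labelled control the intervals of neighbours in this order did not overlap. In the library labelled null AT1-like cells stood at 925 CPM (887 to 964) and secretory-like cells at 884 CPM (852 to 917), which overlapped. The arterial-like ECs came next among named clusters at 59.1 CPM (54.3 to 64.2). The arterial-like cells labelled control held 67.9 CPM (58.2 to 78.8) and those labelled null 55.9 CPM (50.5 to 61.8).

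Venous-like ECs held 26.3 CPM of Krt18 (15.3 to 42.1), but the 37 cells labelled control held none and the 33 cells labelled null 48.5 CPM. Capillary-like ECs held 3.45 CPM and Car4 capillary-like ECs 0.652 CPM. Alveolar fibroblast-like cells held 3.36 CPM.

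Krt8 was highest in ciliated-like cells at 2038 CPM, with secretory-like cells at 721 CPM and AT1-like cells at 718 CPM. Their order turned between libraries, with 661 CPM in secretory-like and 602 CPM in AT1-like cells labelled control, and 774 and 882 CPM in those labelled null, beyond counting error in both. Arterial-like ECs held 3.16 CPM, no more than alveolar fibroblast-like cells at 3.69 CPM. Krt7 was highest in AT1-like cells at 588 CPM, and Krt19 in secretory-like cells at 1400 CPM and AT1-like cells at 1040 CPM. An unnamed cluster led by Upk3b, Dcn and Aldh1a2 held 35.8 CPM of Krt19 and 25.9 CPM of Krt7. Upk3b is a gene of mesothelium, but Dcn and Lum, also among its leading genes, are genes of fibroblasts. By markers the cluster was closest to adventitial fibroblasts, so it is not called mesothelial. The Krt19 level of this cluster was 114 CPM in the 127 cells labelled control and 18.6 CPM in the 473 cells labelled null. Whether its mix of cells differs between the libraries was not tested.

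Vim was high in the EC clusters and low in most epithelial clusters. Few keratin UMIs did not always go with high Vim, as smooth muscle-like cells held 741 CPM and macrophage-like cells 730 CPM. Car4 capillary-like ECs held 9343 CPM, capillary-like ECs 7206 CPM, arterial-like ECs 3115 CPM and alveolar fibroblast-like cells 1312 CPM. AT2-like cells held 189 CPM and ciliated-like cells 152 CPM. Within the epithelium AT1-like cells stood out with 654 CPM. Des was highest in smooth muscle-like cells at 718 CPM, then in pericyte-like cells at 216 CPM, in this order in both libraries. An unnamed cluster led by Lnx1, Gdf10 and Fgf18 held 43.4 CPM labelled control and 109 CPM labelled null.

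**Figure D4:**
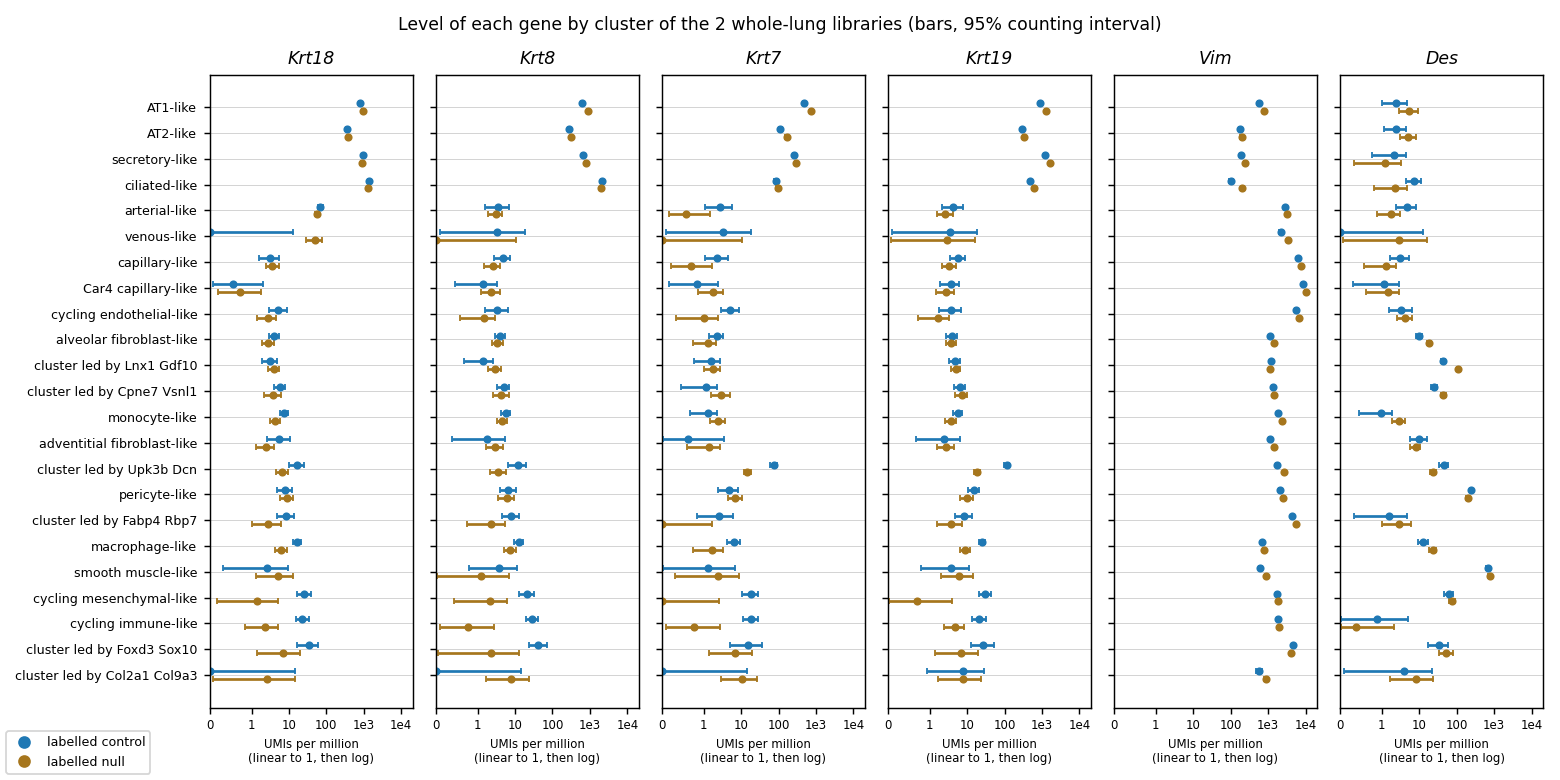
Level of each of the 6 genes in CPM (linear to 1, then log) by cluster in the library labelled control (blue) and the library labelled null (brown), with 95% counting intervals as bars and clusters made mostly of called doublets left out. All 4 keratins are high in the epithelial clusters at the top, Krt18 alone is raised in arterial-like ECs at 67.9 and 55.9 CPM, Vim is high in all ECs and Des in smooth muscle-like cells.

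Between the whole-lung libraries no member of at least 10 CPM differed by 2-fold in the endothelial, epithelial, mesenchymal or immune cells or in Eln-high ECs. In epithelial cells Krt18 stood at 797 CPM labelled control and 834 CPM labelled null, Krt8 at 819 and 938 CPM, Krt7 at 227 and 301 CPM and Krt19 at 657 and 947 CPM. The library labelled null was higher for each of them beyond counting error, by 0.07 (0.02 to 0.11), 0.20 (0.16 to 0.24), 0.41 (0.33 to 0.48) and 0.53 (0.49 to 0.57) on the log2 scale. With SoupX-adjusted counts these differences were −0.31, −0.19, 0.042 and 0.20, so that the direction of Krt18 and Krt8 turned.

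Vim was higher in the library labelled null in endothelial cells by 0.23 (0.22 to 0.24), in mesenchymal cells by 0.27 and in immune cells by 0.16. In endothelial cells the difference became −0.095 with SoupX-adjusted counts. Des in mesenchymal cells was at 57.8 CPM labelled control and 68.3 CPM labelled null. Krt18 in Eln-high ECs differed by 0.21 (−0.05 to 0.49), which did not exceed counting error. Also in Eln-high ECs Krt7 was 3.02 CPM labelled control and 0.436 CPM labelled null, and Krt19 6.04 and 2.61 CPM, both lower labelled null beyond counting error. Of all genes tested 0.312% were that much higher and 0.3% lower labelled null in endothelial cells, 0.309% and 0.138% in epithelial cells, 0.813% and 0.302% in mesenchymal cells, and 1.32% and 0.268% in immune cells.

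Of 63 other intermediate filament genes (all other keratins, the neurofilaments, nestin, synemin, the lamins and their relatives), 8 reached 10 CPM in an EC group. On the mean over the 6 libraries only Krt79 was at least 2-fold higher in Eln-high ECs and none was 2-fold lower, where 8.44% and 2.41% of 10361 genes were. The highest means were Krt79 at 1.08 on the log2 scale, Krt10 at 0.51 and Lmna, which encodes the nuclear lamins A and C, at 0.37. Krt79 rested on E15.5 and P8, at 5.08 and 11.3 CPM, and was not found in Eln-high ECs of the whole lungs. The lowest were Krt80 at −0.66, Nes, the filament of progenitor cells, at −0.60 and Synm, a partner of vimentin and desmin, at −0.57.

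Over all genes tested, 5.91% in the sorted E18.5 library and 4.77% at P8 were at least 2-fold lower in Eln-high ECs. Krt80, Nes and Synm were that much lower in both, being 3 of 6 filament list genes tested at E18.5. The whole E18.5 lungs did not show this, with Nes 1.33-fold and 1.43-fold lower and Krt80 1.17-fold and 1.81-fold lower labelled control and null, and Synm at 26.2 CPM in Eln-high and 20.5 CPM in Eln-low ECs labelled control. Nes stood at 50.3 CPM in Eln-high and 136 CPM in Eln-low ECs at E18.5, and the P8 levels were 147 and 306 CPM. In Eln-low ECs Krt80, Lmna, Nes and Synm were at least 2-fold higher and Lmnb1 at least 2-fold lower at P8 than at E15.5. Of all genes tested 14.6% were that much higher and 6.95% lower. Of the 14 genes that link filaments to junctions or other cytoskeleton 5 reached 10 CPM. Dst, a linker of filaments to adhesion sites, had the highest mean at 0.96 and stood at 611 CPM in Eln-high and 149 CPM in Eln-low ECs at P8. Pkp4 followed at 0.23 and Plec, which joins vimentin to other fibres, at 0.12. Jup, which joins filaments and cadherins at junctions, was lowest at −0.74 and stood at 154 and 284 CPM at P8, and Tchp, a keratin-binding protein, had a mean of 0.10.

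The genes most like Krt18 depended on which cells were compared. Over the 12 Eln-high and Eln-low groups, which share libraries and differ in depth, the Pearson r of log2 CPM with Krt18 was highest for P3h3 (0.974), Ephx2 (0.970), Cpe (0.967), Ssfa2 (0.967) and Nuak1 (0.966) among 4789 genes. P3h3 belongs to the collagen prolyl hydroxylases, Ephx2 encodes soluble epoxide hydrolase and Cpe carboxypeptidase E. Krt8 had an r of 0.392 and Vim of −0.561 with Krt18 there, while Eln had 0.955 and Gkn3 0.934. The groups are the split by Eln for which Krt18 was chosen. These r values describe that contrast and give no separate support. Cpe had a level of 349 CPM in Eln-high and 7.59 CPM in Eln-low ECs at E18.5, and of 325 and 1.89 CPM at P8.

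Over the 52 groups of clusters by library in the whole lungs the order was epithelial. The genes most like Krt18 were Myo5c (0.917), Mal2 (0.911), Cldn7 (0.908), a tight junction claudin, Nkx2-1 (0.905), a transcription factor of lung epithelium, and Prr15l (0.905) among 7808 genes, and r was 0.889 with Krt8. Krt8 was most like Cldn3, Crb3 and Prss8, with r from 0.951 to 0.954. Krt7 was most like Clic3 (0.963), Krt19 (0.962) and Ckmt1 (0.946), and Krt19 most like Fgfbp1 (0.962), Krt7 (0.962) and Lypd2 (0.961). Vim was most like Fyn (0.909), Fam212a (0.909) and Hip1 (0.906), and Des most like the contractile genes Myl9 (0.929), Tagln (0.927) and Tpm2 (0.927). Over the 12 endothelial groups of these clusters alone, a choice made after seeing the data, Bmp4 was most like Krt18 (0.916) and r with Krt8 was −0.13.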

How the data were processed

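Cells of mouse lungs were profiled in 6 droplet libraries (10x 3′ v3), and samples were grouped by their labels. The deposited counts are UMIs of each gene in each cell, which the authors aligned to mm10 and did not normalize. Per the file headers Cell Ranger was at version 3.0.2 for E15.5, E18.5 and P8 and at 3.1.0 for the rest, and the submitters' processing notes name Seurat 3.2.2. A second deposited table of each whole lung holds expected counts, that is counts which SoupX adjusted for free RNA without scaling for depth.

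Cells with at least 700 genes and 0.5% to 10% mitochondrial UMIs were kept. Levels are summed UMIs as CPM with exact Poisson intervals, and ratios carry exact conditional (Clopper-Pearson) intervals, both at 95%, and log2 ratios add 0.5 CPM. The depth of a group sets these intervals. They cover counting error only, and log2 intervals are those of the ratio without the pseudocount. With 1 library per condition no p-value is given, and "called" means past a fold of 2 among genes of at least 10 CPM.

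Epithelial cells had at least 2 Epcam UMIs, with no limit on Ptprc or collagens. Mesenchymal cells had at least 10 UMIs of Col1a1, Col1a2 and Col3a1 together and no Epcam or Ptprc UMI. Immune cells had at least 1 Ptprc UMI, no Epcam UMI and under 10 of these collagen UMIs. All of these classes had under 2 UMIs of Pecam1 plus Cdh5. Scrublet (scanpy 1.11.5) calls were kept in the main values and left out as an alternative. At E18.5 and P8, where its threshold did not work, the expected share of the highest scores was taken. Whole-lung clusters came from a Louvain graph (20 components, 20 neighbours, resolution 0.8) made without the members. The limits of the naming rule were set after the clusters had been seen. Simulated counts with known folds were used to test the scripts.

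The members and lists were chosen with earlier results of these data known. Genes named are the members, the 3 highest and 3 lowest of the filament and linker lists by mean ratio, and the genes most like each member by Pearson r among those of at least 50 CPM (5 for Krt18, 3 for the others). Genes past the fold in 1 library, the leading genes of clusters, Krt10, Krt79 and Krt80 levels, and the KLF motif were added after values were seen. In the last 500 bases of the members' transcripts no run of 60 bases occurred in another gene. The Krt19 promoter was not used here.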

Additional observations from a re-analysis of the deposited data

Results flagged for a closer look

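In 5 instances a member moved one way between time points in Eln-high ECs and the other way in Eln-low ECs. With 1 library per time point the difference between the EC groups was not tested, and all values are on the log2 scale. Krt18 differed by 2.75 from E13.5 to E15.5 in Eln-high ECs and by −1.43 in Eln-low ECs, with 47 Eln-high cells at E13.5. From E15.5 to E18.5 it differed by 0.15 and −0.67. Vim differed by 0.14 in Eln-high and −0.52 in Eln-low ECs from E18.5 to P8, and by 0.35 and −0.029 from E15.5 to P8. Des differed by −0.66 in Eln-high and 0.73 in Eln-low ECs from E15.5 to E18.5, all at levels under 7 CPM. Smooth muscle markers in Eln-high ECs stood at 1238 CPM at E15.5 and 645 CPM at E18.5, and their part in the Des values was not tested.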

How the results depend on the processing

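Of 177 values under other settings, 138 were counted as within the spread or counting interval, 36 as moved beyond it and 3 as turned. Not every change of sign was counted as turned. A mean over libraries could be so counted only where all 6 libraries had the same sign. The means of Des, from 1.54 to −0.87 and −0.52, and of Krt19, from 0.60 to −0.57, were thus not counted as turned. Leaving out the P8 library took the mean log2 ratio of Krt7 from −0.18 to 0.05, and this was counted as within the spread. No value comes from a test, paired or not. Eln-high and Eln-low ECs are compared within each library, and each condition has 1 library. Leaving out 1 library at a time gave mean log2 ratios of Eln-high over Eln-low ECs of 4.33 to 5.55 for Krt18, 0.17 to 1.03 for Krt8, −0.43 to 0.05 for Krt7, 0.22 to 0.85 for Krt19, −0.66 to −0.52 for Vim and 1.26 to 1.97 for Des. With cells carrying markers of other classes left out, Krt18 went from 4.83 to 6.55, Krt8 from 0.64 to 2.03, Krt7 to −1.22 and Des to −0.87, and with the Gkn3 split Krt19 became −0.57 and Des −0.52. These settings drop libraries with under 20 cells in a group. For P8 over E15.5, leaving out marker-carrying cells gave −0.76 for Krt18 and 0.39 for Vim in Eln-high ECs and −0.048 for Vim in Eln-low ECs. Leaving out doublet calls gave −0.39, 0.45 and −0.044, and the mean of per-cell CPM gave −0.13 for Vim in Eln-low ECs.

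For labelled null over labelled control, SoupX-adjusted counts gave −0.31 for Krt18, −0.19 for Krt8, 0.042 for Krt7 and 0.20 for Krt19 in epithelial cells. For Vim they gave −0.095 in endothelial, −1.58 in epithelial, 0.58 in mesenchymal and 0.22 in immune cells, and for Des 0.0061 in mesenchymal cells. Classes taken from clusters gave 0.48 for Krt19, and 0.21, 0.30, 0.29 and 0.24 for Vim in the same 4 classes. The mean of per-cell CPM gave 0.24 for Krt8, 0.31 for Krt7, 0.43 for Krt19, 0.38 for Des, and 0.21, 0.18 and 0.21 for Vim in endothelial, epithelial and mesenchymal cells. Without doublet calls Vim in epithelial cells differed by 0.23. The log2 excess of Krt18 per epithelial marker UMI in ECs, 2.45 labelled control and 3.47 labelled null, was 1.81 and 2.95 without Sftpc. With SoupX-adjusted counts it was 5.83 and 9.68. The adjustment itself takes epithelial markers out of ECs, leaving 82.8 and 21.3 counts of 2006 and 2158. These last 2 values thus rest on few marker counts and add nothing to the unadjusted excess. A fold of 1.5 gave 3 filament genes past it and a pseudocount of 5 CPM gave 0, where 1 was past it. The causes were not tested.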
